A study of Mus musculus with 6 samples.

Results

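Box C/D small nucleolar RNAs (snoRNAs) were taken as all rows of the deposited expression table whose gene symbol is Snord followed by a digit. There were 106 such rows, with 104 distinct symbols, among 55357 genes in all. RNA came from 6 subcutaneous tumours of KPC1242, a mouse line of pancreatic ductal adenocarcinoma, in C57BL/6J hosts. Mice of the FA group (3 tumours) received 2 mg folinic acid, a reduced folate, by mouth each day from day 8 to day 12 after the cells were injected. Mice of the PBS group (3 tumours) received phosphate-buffered saline on the same days, and all tumours were taken on day 14. Every tumour thus shares 1 cell line and 1 host strain, and each value is from whole-tumour RNA, in which fewer cells of a type and less RNA per cell cannot be told apart.

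Box C/D snoRNAs are short RNAs of the nucleolus that pair with other RNAs, mostly ribosomal RNA, and direct the protein fibrillarin to add a methyl group to the ribose at the paired position. Their name comes from 2 short sequence elements, box C near the 5′ end and box D near the 3′ end, which the proteins Snu13, Nop58, Nop56 and fibrillarin bind. A few, among them U3, U8, U14 and U22, act instead or as well in cutting the ribosomal RNA precursor. In mammals most are cut out of introns of host genes, many of which encode ribosomal proteins, nucleolar proteins or RNAs with no known protein product such as Gas5 and Snhg1.

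The values are TPM, a relative unit that divides the reads of a gene by a measure of its length and scales each library to the same total. Which measure of length the authors' program used is not known. It was not the annotated length alone, since the steps described below fell more steeply than that length rises. Sequences were taken from GENCODE M21 (mouse build GRCm38), where 75 members were matched by Ensembl identifier, 26 more by symbol, and 5 copies of U3 not at all. The authors' own build was not known, so coordinates printed are those of the annotation. The 10 sequences below are the members that the results turn on, 5′ to 3′, with box C (TGATGA within the first 20 bases) and box D (CTGA within the last 20 bases) in capitals. The first 8 were above 0 in at least 3 tumours, and the last pair, Snord34 and Snord47, come from the same host genes as Snord32a and Snord80 but were listed at 0 in every tumour.
Snord45c: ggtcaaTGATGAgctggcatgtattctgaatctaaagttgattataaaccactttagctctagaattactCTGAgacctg
Snord32a: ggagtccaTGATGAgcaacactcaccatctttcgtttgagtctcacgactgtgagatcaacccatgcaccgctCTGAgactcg
Snord22: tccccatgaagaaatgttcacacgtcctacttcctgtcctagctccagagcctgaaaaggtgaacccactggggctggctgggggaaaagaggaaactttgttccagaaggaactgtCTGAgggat
Snord14c: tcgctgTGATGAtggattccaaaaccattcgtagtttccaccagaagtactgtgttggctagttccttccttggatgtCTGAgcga
Snord14d: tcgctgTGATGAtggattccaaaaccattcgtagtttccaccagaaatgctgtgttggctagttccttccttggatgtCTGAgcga
Snord80: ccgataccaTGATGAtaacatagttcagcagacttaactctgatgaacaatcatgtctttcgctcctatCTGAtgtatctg
Snord87: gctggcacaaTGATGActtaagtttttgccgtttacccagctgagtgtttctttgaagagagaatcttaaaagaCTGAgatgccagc
Snord35a: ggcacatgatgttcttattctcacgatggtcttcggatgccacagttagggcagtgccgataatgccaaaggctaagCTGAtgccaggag
Snord34: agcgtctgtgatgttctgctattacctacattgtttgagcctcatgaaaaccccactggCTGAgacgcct
Snord47: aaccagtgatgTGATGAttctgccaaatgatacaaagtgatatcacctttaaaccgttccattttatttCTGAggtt

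In GRCm38, Snord45c lies at chr3:153912125-153912204 (reverse strand) in Rabggtb, a prenyltransferase subunit gene, and Snord22 at chr19:8725866-8725991 (forward strand) in Snhg1. Snord32a (chr7:45127382-45127464), Snord34 (chr7:45126601-45126670) and Snord35a (chr7:45126346-45126435) lie on the reverse strand in introns of Rpl13a, a ribosomal protein gene. Snord80 (chr1:161037601-161037681) and Snord47 (chr1:161038082-161038158) lie on the forward strand in Gas5, and Snord87 (chr1:9942463-9942549) on the reverse strand in an intron of Snhg6. The U14 copies Snord14c (chr9:40803583-40803668) and Snord14d (chr9:40803995-40804080) lie on the forward strand in Hspa8, which encodes a chaperone. They are 86 bases each and differ at 2 positions, G47A and A49G from Snord14c to Snord14d counted from the 5′ end, an identity of 97.7%, so reads can be shared between them.

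Of 101 members with a sequence, 67 (66.3%) held both boxes as spelled, 69 held box C and 99 held box D, searched on the transcript strand. Among 2698 other short noncoding genes (snoRNA, microRNA, small nuclear and small Cajal body RNA genes) of the same range of lengths, 2.19% held both. None of 37 H/ACA snoRNAs, the class that guides pseudouridylation, held both. Of the 17 members with a mean of at least 1 TPM, 17 held box D and 11 held box C. The other 6, Snord22 and Snord35a among them, do not have these exact letters in that window.

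Few members had any value. In every tumour 75 of the 106 were listed at 0, 31 were above 0 in at least 1 tumour, and 17 reached a mean of 1 TPM over the 6 tumours. Single tumours had between 16 and 20 members above 0, with 16, 19 and 20 in FA tumours, against 18, 16 and 20 in PBS tumours, so the groups overlapped. Only 5 members were above 0 in all 6 tumours, namely Snord45c, Snord22, Snord83b, Snord94 and Snord17. Just above the 1 TPM minimum stood Snord94 (mean 1.43 TPM) and Snord8 (1.14 TPM), and just below it Snord17 (0.833 TPM) and Snord68 (0.77 TPM).

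By role, the processing snoRNAs had 14 rows, of which 9 were above 0 and 3 reached 1 TPM (Snord22 and the U14 copies Snord14c and Snord14d). Snord118 (U8), needed to mature the large-subunit RNAs, and Snord13, which takes part in the acetylation of small-subunit RNA, were listed at 0 in all 6 tumours. Dividing cells use both, so a 0 in this table is not read as absence. For U3, the most studied processing snoRNA, the table lists the same values for 4 copies (Snord3b1 to Snord3b4), at 0.62, 0.48 and 0 TPM in the FA tumours, against 0.28, 0.43 and 1.22 TPM in the PBS tumours. A level for single U3 copies is therefore uncertain. A second row named Snord3b4 had unlike values, with 0.34 TPM in FA replicate 3 and 0 elsewhere. Snord3a was at 0.28 TPM in FA replicate 3, 1.46 TPM in PBS replicate 3 and 0 elsewhere. The rows named Snord3b-ps1 were listed at 0 in every tumour.

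The imprinted clusters, which neurons are known to express, had 19 rows (Snord64, Snord107 and 17 Snord116 copies), and 0 were above 0. Snord64 (67 bases) and Snord107 (70 bases) are shorter than 80 bases, and no matched member under that length had a value. The Snord116 copies are 94 bases each, and whether reads can be assigned to single copies was not tested. These zeros are thus not read as absence. The host RNA of the Snord116 copies, Snhg14, stood at 1.39 ± 0.354 TPM under FA and 1.75 ± 0.111 TPM in PBS tumours (SD over 3 tumours). Of 4 neuronal markers, Syt1 (0.0367 ± 0.0153 and 0.0167 ± 0.0115 TPM) and Rbfox3 (0.117 ± 0.0723 and 0.08 ± 0.0656 TPM) were near 0, while Snap25 (1.08 ± 0.371 and 1.23 ± 0.125 TPM) and Tubb3 (16.6 ± 2.97 and 17.4 ± 2.87 TPM) averaged at least 1 TPM. The remaining 73 rows are mostly methylation guides, of which 22 were above 0 and 14 reached 1 TPM.

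Whether a member had a value went with its length. All 42 matched members shorter than 80 bases were listed at 0 in every tumour, and of 59 members of 80 bases or more, 26 were above 0 and 17 reached 1 TPM. The shortest member above 0 was Snord45c, at 80 bases, and it also had the highest mean TPM. In that unit a fragment is worth more for a shorter member (see the steps below), so the highest TPM is not read as the most fragments. The median length was 91.5 bases for members above 0 and 76 bases for members at 0. Other short RNAs also lacked values when very short. Of 572 other short noncoding genes of at most 75 bases, 0 were above 0, against 14 of 104 (13.5%) from 76 to 79 bases and 46 of 486 (9.5%) from 80 to 99 bases. In that last range 17 of 43 members (39.5%) were above 0. The plot of length and level shows the members. Of the members under 80 bases, 36 are of at most 75 bases, a range in which no other short noncoding gene had a value either. The other 6 are from 76 to 79 bases. The worth of 1 step, given below, also rose steeply toward the shortest members. A 0 at such lengths is thus not read as absence of the RNA. Which step of library making, alignment or length scaling sets these zeros was not tested.

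**Figure D1:**
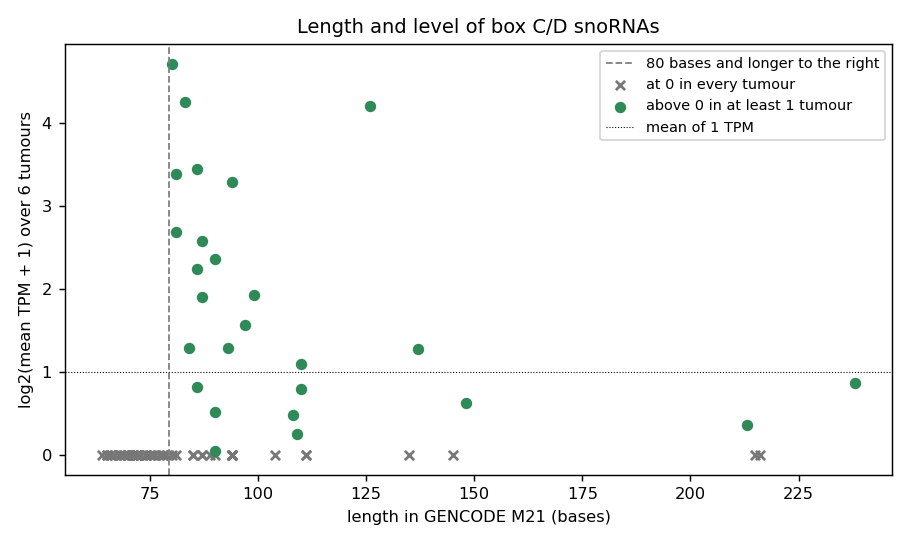
Length in GENCODE M21 (x axis, bases) against log2(mean TPM + 1) over 6 tumours (y axis) for the 101 matched box C/D snoRNAs. All members left of the dashed line, under 80 bases, lie at 0 (crosses), while 26 of 59 to its right are above 0 (circles), 17 of them at or above the dotted line at a mean of 1 TPM.

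In 3 host genes the members divided by length, which follows from all matched members under 80 bases being at 0 and adds nothing to it. In Rpl13a, which stood at 2926 ± 97.4 TPM under FA and 2949 ± 164 TPM under PBS, Snord32a (83 bases) and Snord35a (90 bases) had values and Snord34 (70 bases) was listed at 0. In Gas5, at 797 ± 10.2 and 795 ± 19.8 TPM, Snord80 (81 bases) had values and Snord47 (77 bases) and Snord78 (66 bases) were listed at 0. In Rabggtb, at a mean of 113.1 TPM, Snord45c (80 bases) had values and Snord45b (71 bases) was listed at 0. Rpl23a, the highest host at a mean of 3518 TPM, carries Snord42a, Snord42b and Snord4a (65, 69 and 71 bases), all listed at 0. Length alone did not divide others. Snord69 (80 bases, in Gnl3), Snord96a (81 bases, in Rack1) and Snord92 (85 bases, in Wdr43) were listed at 0 in every tumour. In Rps3, Snord15a (148 bases) had 1 value, 3.31 TPM in PBS replicate 3, and the slightly shorter Snord15b was listed at 0.

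Host levels overlapped. The 14 hosts with a member at 1 TPM or more had a median of 270.1 TPM (range 6.71 to 3153), and the other 41 hosts in the table had a median of 223 TPM (range 0.668 to 3518). Ribosomal protein genes made up 14 of the 55 hosts, and 4 of them held a member of at least 1 TPM. Among members of at least 80 bases that are not Snord116 copies, 16 of 19 that lie in an intron of every annotated host transcript were above 0. Of those that overlap an exon of some host transcript, such as a transcript that retains the intron, 9 of 18 were above 0. No test was made of that difference.

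The values behind these levels moved in steps. Where whole fragments are counted, the TPM of a gene in a tumour is a whole multiple of what 1 fragment is worth. The relative worth in each tumour was read from ratios of low genes above 0 in a pair of tumours, and was 0.995 and 1 in FA replicates 2 and 3 and 1.02, 0.785 and 1.04 in PBS replicates 1, 2 and 3, relative to FA replicate 1. On this scale 11 of the 17 members fell on whole numbers of steps in every tumour, within 0.06 of a step. They include all 10 that are intronic in every host transcript and 1 of 7 (Snord94) that overlap an exon of some host transcript. Snord11 and Snord91a had values in 2 tumours alone, so their fit to whole steps says little.

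The steps were few. Snord32a had 2, 0 and 6 steps in FA tumours, against 10, 4 and 1 in PBS tumours. Snord83b, in an intron of the ribosomal protein gene Rpl3, had 5, 4 and 1 steps in FA tumours, against 8, 2 and 6 in PBS tumours. Snord87 had 1, 1 and 0 steps in FA tumours, against 2, 4 and 2 in PBS tumours. Over the 6 tumours together the 11 members had between 2 and 26 steps, with a median of 8 and at most 10 in 1 tumour. These are the smallest whole numbers that match, and the fragments may be a multiple of them.

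Shorter members had larger steps. In FA replicate 1, 1 step was worth 6.45 TPM for Snord72 (81 bases), 4.84 TPM for Snord32a (83 bases), 3.22 TPM for Snord87 and Snord70 (87 bases each) and 2.58 TPM for Snord35a (90 bases). It was worth 1.11 TPM for Snord8 (110 bases) and 0.625 TPM for Snord94 (137 bases). This fall is steeper than division by the annotated length alone would give. Snord94 with 14 steps over the 6 tumours therefore has a mean of 1.43 TPM, while Snord72 with 5 steps has 5.45 TPM. The order of these members by TPM thus differed from their order by steps.

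**Figure D2:**
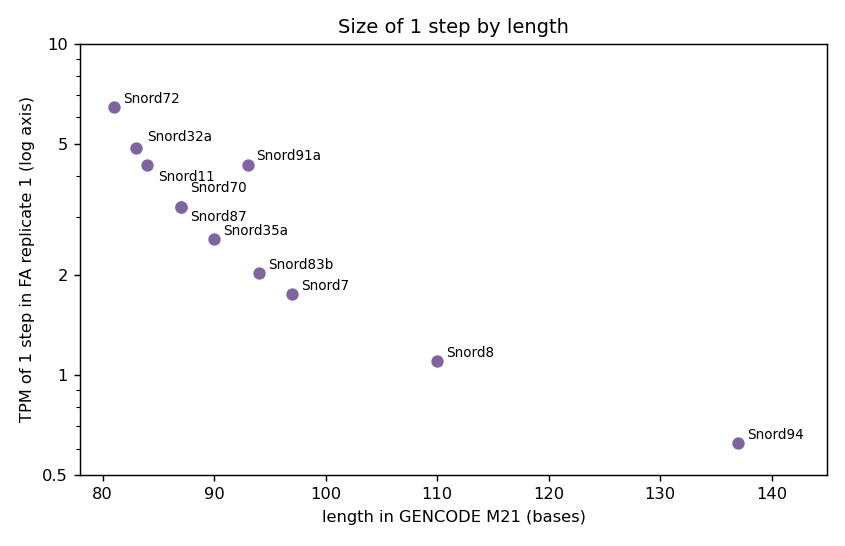
TPM of 1 step in FA replicate 1 (y axis, log axis) against length in GENCODE M21 (x axis, bases) for the 11 members whose values fell on whole steps. The step is 6.45 TPM at 81 bases and 0.625 TPM at 137 bases, and Snord91a, with values in 2 tumours, lies above the others of its length.

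The highest members by mean TPM differed from tumour to tumour. Snord45c stood at 14.51, 44.55 and 22.80 TPM in the FA tumours, against 23.68, 29.24 and 17.07 TPM in the PBS tumours, so that both the lowest and the highest value were in FA. Snord32a was at 9.67, 0 and 29.07 TPM under FA and 49.45, 15.19 and 5.03 TPM in PBS tumours. Snord22 (U22), which takes part in making small-subunit RNA, was the steadiest of the 7 members of at least 5 TPM, at 17.26, 21.94 and 13.68 TPM under FA and 11.58, 16.80 and 23.94 TPM in PBS tumours. The groups overlapped for all 3. Snord45c (80 bases) and Snord22 (126 bases) did not fall on whole steps, so their numbers of fragments are not known. Among members that did, 1 step was worth 6.45 TPM at 81 bases and 0.625 TPM at 137 bases. The rank of Snord45c and the steadiness of Snord22 can thus not be told apart from their lengths.

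The member with the highest value was Snord80 in FA replicate 1 (21.1% of the summed level), Snord45c in FA replicate 2 and PBS replicate 2 (33.2% and 26.5%), Snord14c in FA replicate 3 (23.3%), Snord32a in PBS replicate 1 (35.2%) and Snord22 in PBS replicate 3 (18.6%). Summed over all 106 members, the level was 100.1, 134.0 and 146.5 TPM in the FA tumours, against 140.7, 110.3 and 128.8 TPM in the PBS tumours. The group means of the sum were 126.9 ± 24.0 TPM under FA and 126.6 ± 15.3 TPM in PBS. The 46 H/ACA and small Cajal body RNAs summed to 103 ± 7.41 and 105 ± 33.1 TPM, with the highest sum (142 TPM) in PBS replicate 2.

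**Figure D3:**
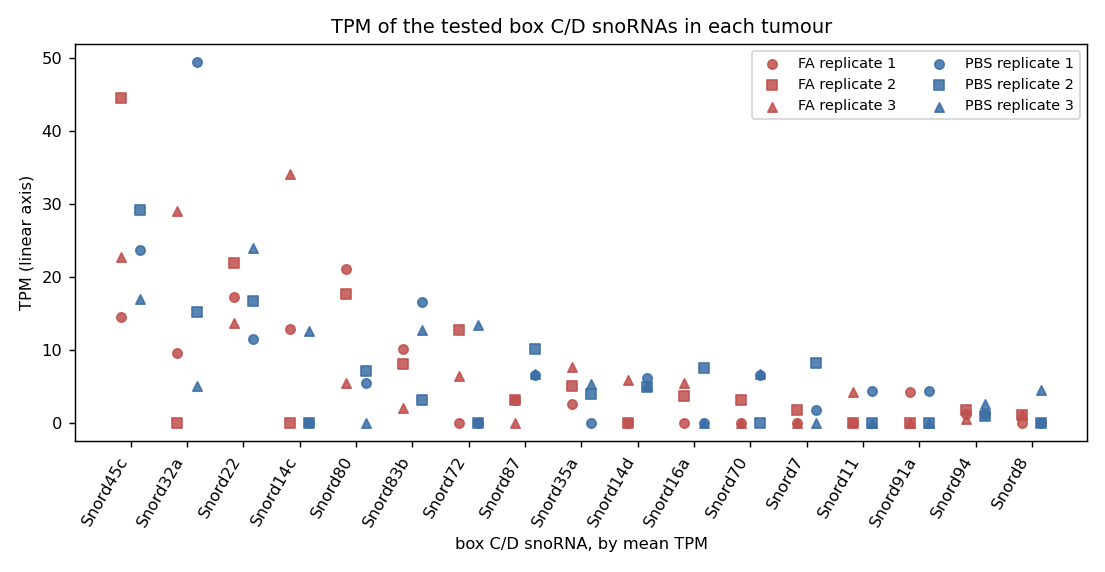
TPM (y axis, linear) of the 17 box C/D snoRNAs with a mean of at least 1 TPM, ordered by mean (x axis), with 1 point per tumour (red FA, blue PBS, shape by replicate). At least 1 tumour lies at 0 for 13 members, and Snord87 is the 1 member whose FA points all lie under its PBS points.

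The spread between tumours was wide. As log2(TPM + 1), the median SD within groups was 1.28 over the 17 members, with Snord22 lowest at 0.417 and Snord14c highest at 2.43. Between 1 and 5 TPM the median SD was 1.21 for 10 members against 0.251 for 3645 other genes, and between 5 and 20 TPM it was 1.72 for 6 members against 0.172 for 4489 other genes. H/ACA and small Cajal body RNAs stood between in these 2 ranges, at 0.668 (7 genes) and 0.391 (4 genes). From 20 to 100 TPM there was 1 gene of each class, and the order was the other way, at 0.613 for Snord45c and 1.27 for the H/ACA gene. Of the 17 members, 17 exceeded the median and 15 the 95th percentile of other genes in their range of TPM. Of their 102 values 31.4% were 0, against 0.709% in 8741 other genes within the same span of mean TPM. These ranges match genes by TPM and not by fragments. The 11 members on whole steps had at most 10 steps in 1 tumour, and the fragments behind other genes of the same TPM are not known. The part of few fragments in the wider spread was not tested.

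**Figure D4:**
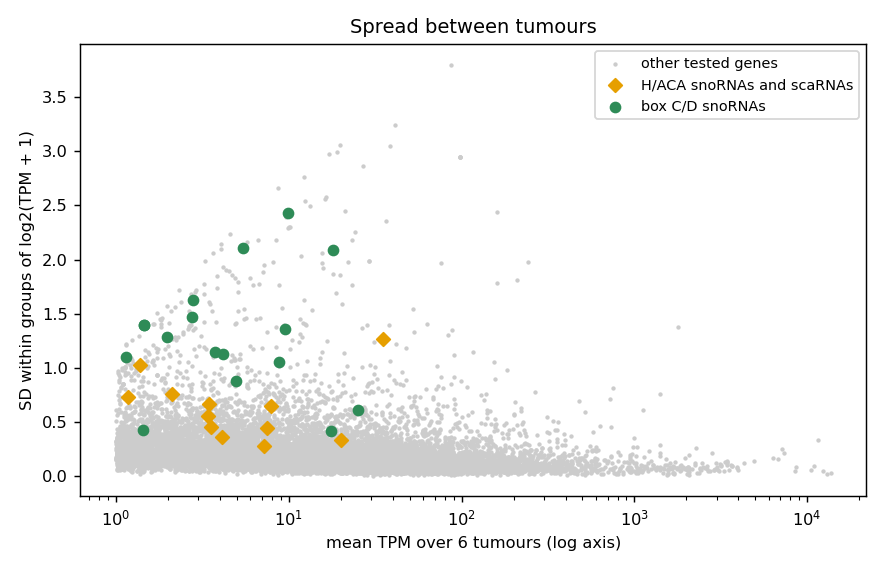
SD within groups of log2(TPM + 1) (y axis) against mean TPM over 6 tumours (x axis, log axis) for every tested gene (grey), H/ACA snoRNAs and small Cajal body RNAs (orange diamonds) and the 17 box C/D snoRNAs (green circles). The green points lie between 0.417 and 2.43, and 15 of 17 lie above the 95th percentile of other genes of like mean TPM. Genes of like TPM need not rest on like numbers of fragments.

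The comparison of FA with PBS asked whether folinic acid changed the tumour's RNA. No member passed the threshold. By limma on log2(TPM + 1), fitted to the 15023 genes that averaged 1 TPM or more, 0 of 17 members were higher and 0 lower at a Benjamini-Hochberg adjusted p under 0.05. The background was the same, with 0% of all tested genes higher and 0% lower, and the smallest adjusted p among members was 1. An unadjusted p under 0.05 was found for 2 of 17 members and for 1.28% of all genes (192). FA values were all below PBS values for 1 member (background 2.22%) and all above for 0 members (background 2.48%). With 1 member the share rests on a single gene.

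Snord87, in an intron of Snhg6, was that member. It stood at 3.22, 3.21 and 0 TPM in the FA tumours, against 6.59, 10.12 and 6.71 TPM in the PBS tumours, so the groups did not overlap. The log2 difference was -1.73 ± 0.57 (SE), with a 95% interval from -3.08 to -0.38, an unadjusted p = 0.0194 and an adjusted p = 1 from limma. In steps this is at most 1 in an FA tumour and at least 2 in a PBS tumour. Its host Snhg6 differed little between groups, at 120 ± 11.4 TPM under FA and 117 ± 8.58 TPM in PBS tumours.

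U14, a snoRNA with a part in both cutting and methylating small-subunit RNA, was listed for Hspa8 as a pair of near-identical copies with unlike values. Snord14d was at 0, 0 and 5.94 TPM in FA tumours, against 6.15, 4.97 and 5.28 TPM in PBS tumours (log2 difference -1.76 ± 0.74, unadjusted p = 0.0499, adjusted p = 1, limma). FA replicate 3 lay among the PBS values. Snord14c was at 12.89, 0 and 34.13 TPM in FA tumours, against 0, 0 and 12.60 TPM in PBS tumours, with a log2 difference of 1.72 and an interval from -1.97 to 5.41. The point estimates of the copies thus have opposite signs, and the copies differ at 2 of 86 bases. Without FA replicate 3, Snord14d was the 1 gene of 14944 called (0.00669%), at a difference of -2.69 and an adjusted p = 0.0268. The remaining FA values are then both 0. Hspa8 itself was at 3240 ± 210 and 3066 ± 245 TPM.

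Snord80, a methylation guide in Gas5, had the largest positive difference. It was at 21.08, 17.65 and 5.45 TPM in FA tumours, against 5.53, 7.12 and 0 TPM in PBS tumours, and FA replicate 3 lay below PBS replicates 1 and 2. The log2 difference was 1.88 ± 0.86, with an interval from -0.18 to 3.95 (unadjusted p = 0.068, adjusted p = 1, limma). Gas5 itself differed by 0.00, with its groups at 797 and 795 TPM.

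Among other members with higher means in FA, Snord72 was at 0, 12.83 and 6.46 TPM under FA and 0, 0 and 13.42 TPM in PBS tumours. Snord35a was at 2.58, 5.13 and 7.75 TPM under FA and 0, 4.05 and 5.37 TPM in PBS tumours. Snord16a, in Rpl4, was at 0, 3.72 and 5.55 TPM under FA and 0, 7.56 and 0 TPM in PBS tumours. In all 3 the groups overlapped, with log2 differences of 0.95, 0.86 and 0.62 and intervals that include 0.

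Among members with lower means in FA, Snord83b was at 10.18, 8.10 and 2.04 TPM under FA and 16.66, 3.20 and 12.71 TPM in PBS tumours. Snord70, in the core protein gene Nop58, was at 0, 3.21 and 0 TPM under FA and 6.59, 0 and 6.71 TPM in PBS tumours. Snord7 was at 0, 1.75 and 0 TPM under FA and 1.80, 8.28 and 0 TPM in PBS tumours. These and Snord32a overlapped between groups, with log2 differences of -0.57, -1.27, -1.08 and -1.31 in that order, and intervals that include 0.

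Snord8 was at 0, 1.10 and 1.11 TPM in FA tumours, against 0, 0 and 4.60 TPM in PBS tumours, and Snord11 and Snord91a each had a value in 1 FA and 1 PBS tumour, at about 4.3 or 4.4 TPM. Snord94, in Ptcd3, was at 1.25, 1.86 and 0.63 TPM in FA tumours, against 1.28, 0.98 and 2.60 TPM in PBS tumours. All 4 overlapped between groups. Differences near 0 were found for Snord45c (0.11, interval -0.84 to 1.05), Snord22 (0.05, -0.61 to 0.70) and Snord94 (-0.21, -0.94 to 0.52). Of the 17 members 7 had a positive and 10 a negative difference, and the median was -0.01, against 0.00 over all tested genes. The intervals of 14 members spanned more than 2 log2 units. The median width over all 17 was 3.95, against 0.645 over all tested genes.

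**Figure D5:**
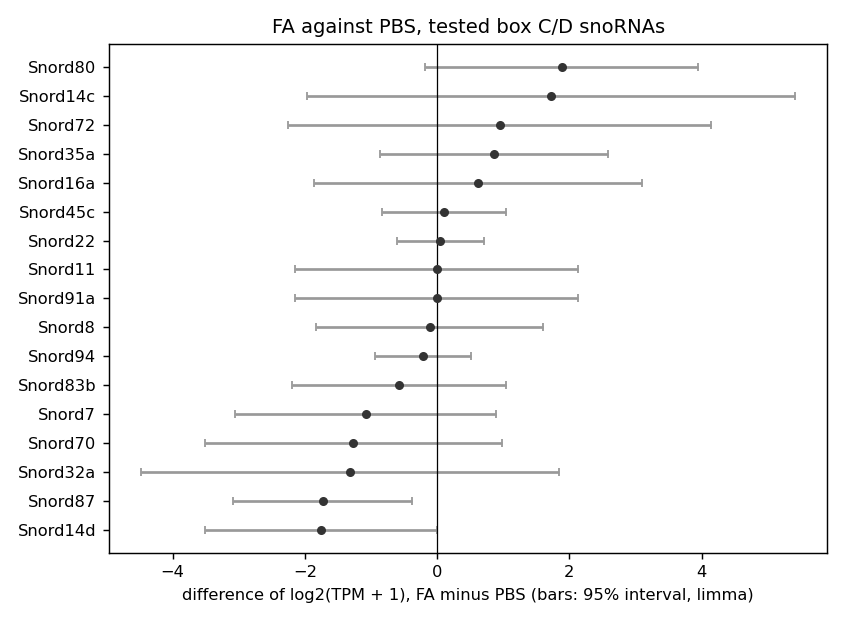
Difference of log2(TPM + 1), FA minus PBS (x axis), with its 95% interval from limma (bars), for the 17 tested box C/D snoRNAs (y axis, ordered by the difference). The points run from -1.76 (Snord14d) to 1.88 (Snord80), and the intervals of Snord14d and Snord87 alone lie below 0, that of Snord14d reaching -0.000853.

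Transcripts of the box C/D particle proteins were abundant, with similar means in both groups. Fbl, the gene of the methyltransferase fibrillarin, averaged 115.5 ± 19.2 TPM under FA and 110.1 ± 3.88 TPM under PBS. The scaffold protein genes Nop56 and Nop58 were at 251 ± 33.1 and 238 ± 19.9 TPM and at 276 ± 13.7 and 278 ± 19.5 TPM. Snu13, whose protein binds first, averaged 156 ± 6.39 and 153 ± 5.53 TPM, and the interval of its difference ran from -0.12 to 0.18. The intervals of Fbl, Nop56 and Nop58 ran from -0.22 to 0.34, -0.19 to 0.33 and -0.19 to 0.17. Of the 4 core genes, 15 assembly and processing genes, 6 H/ACA core genes, 10 U3 particle genes and 11 RNA polymerase I genes, 0 passed the threshold in either direction and 0 had an unadjusted p under 0.05. The median differences of these lists lay between -0.01 and 0.04. Polr1a, the largest RNA polymerase I subunit, was higher in all FA tumours (48.8 ± 1.26 and 44.6 ± 0.628 TPM) and the U3 particle gene Nol6 lower (35.9 ± 2.04 and 39.4 ± 0.529 TPM), with no overlap between groups in either. Over all tested genes, 2.48% were higher and 2.22% lower without overlap.

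Of 19 noncoding host genes 0 passed, 8 had a positive and 11 a negative difference. Values without overlap were found for Snhg8 (160 ± 1.98 and 173 ± 0.821 TPM) and Snhg15 (29.5 ± 1.27 and 31.6 ± 0.491 TPM), both lower in FA, with limma differences of -0.11 and -0.10, beside the 2.22% of all genes that lay lower without overlap. Among the 55 hosts of box C/D members, values did not overlap for 1 higher (Rab26os, an antisense RNA, at 41.7 ± 4.10 and 34.8 ± 1.75 TPM) and 1 lower (2410002F23Rik, at 51.2 ± 1.55 and 54.8 ± 2.28 TPM), both named after their values were seen. The strand setting of the count was not known, so reads of Rab26os and of the gene opposite cannot be told apart. The 14 hosts of tested members differed by -0.05 to 0.08 in log2, with a median of 0.00 and 0 past the threshold. Of the 46 H/ACA and small Cajal body RNAs 29 were above 0, 12 were tested and 0 passed. Of 9 other short noncoding RNAs such as Rmrp, 4 were tested and 0 passed.

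Each tumour had from 23858 to 25669 genes above 0. The column names carry a prefix that differs between FA and PBS tumours, so whatever it marks and the treatment cannot be told apart. The ductal keratin Krt19 was at 1246 ± 67.3 TPM under FA and 1115 ± 61.6 TPM in PBS tumours and the 4 T cell markers checked averaged under 1 TPM in each group. FA replicate 3 stood apart, with a correlation across genes of 0.949 to 0.968 with the other tumours, against 0.981 to 0.987 among those. Skeletal muscle, fibroblast and macrophage markers moved with it, being highest in it for 4 of 4 genes in each list (Acta1 at 144 ± 210 and 31.0 ± 27.0 TPM). Its summed member level, 146.5 TPM, was the highest of the 6, and their part in the snoRNA values was not tested.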

How the data were processed

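RNA from 3 FA and 3 PBS tumours was extracted with the RNeasy mini kit and made into stranded total RNA libraries, per the labels' protocols. The authors deposited 1 table of TPM, each column scaled by the authors to the same total. FastQC, STAR, featureCounts and RSEM are listed, per the submitters' processing notes, with no role. The build is not given in the sources used here, and depth is unknown. Columns were matched to tumours by the descriptions in the labels.

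Values were fitted as log2(TPM + 1) with limma 3.58.1 in R 4.3.3, FA minus PBS with no covariate, a variance trend and Benjamini-Hochberg adjustment over all genes that averaged 1 TPM or more. The fit was tested on simulated data with the spread of a typical gene of each level. That test does not cover the wider spread and the zeros of the members. The labels do not say whether tumours are from separate mice, so p-values measure the spread between these samples. Fold changes on this scale understate the change of low genes. Errors beside TPM are SD, and those beside log2 differences are SE. Lengths, hosts and sequences are from GENCODE M21. A host is a gene that holds the whole member on the same strand, named genes being taken before numbered models.

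The members and lists were chosen with earlier results of these data known. Members were named if they were among the 10 highest, the 6 with the smallest p per direction, the 6 most or least variable of at least 5 TPM, the highest of a role group or next to the 1 TPM minimum, with Snord14d added. Other members were named after their values were seen. Alternatives were pseudocounts of 0.1 and 0.5, no filter, a mean of at least 5 TPM, 3 rescalings, no trend, array weights, leaving out each tumour, an adjusted p under 0.1 and a replicate block. Leaving out tumours in the spread and detection counts was added after seeing the data.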

Additional observations from a re-analysis of the deposited data

How the results depend on the processing

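By limma the members called numbered 0 higher and 0 lower in all alternatives except that without FA replicate 3, and a threshold of 0.1 gave the same. Leaving out 1 tumour gave 0 to 1 lower member, the 1 being Snord14d without FA replicate 3. Over all genes, 2 were higher without the filter (Gm24045 and Gm22728, named after their values were seen), and leaving out 1 tumour gave 0 to 1 lower. With the replicate number as a block the counts were 0 and 0. Same-numbered tumours had correlations of their deviations from the group means of -0.208, 0.053 and -0.022, against -0.192 to 0.245 for tumours of unlike number. These values gave no sign of pairs by number, but 3 tumours per group are too few to exclude them.

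Members with all FA values above PBS numbered 0 to 1 and those with all FA values below 1 to 3 when 1 tumour was left out, while the shares of all genes were 4.22% to 11.1% and 4.85% to 9.66%. The first was Snord14c without FA replicate 2 and Snord80 without FA replicate 3. The second was Snord87 throughout, with Snord14d without FA replicate 3, Snord70 and Snord83b without PBS replicate 2, and Snord7 without PBS replicate 3. For Snord87 this is no test. Its groups did not overlap with all tumours kept, so leaving 1 out could not make them overlap. The lower end of 1 in the count below was thus fixed beforehand. With a mean of at least 5 TPM the count below was 0, because Snord87 (mean 4.98 TPM) is then not tested. The median difference of members ranged from -0.40 (without PBS replicate 2) to 0.15 (without FA replicate 1). A pseudocount of 0.1 raised the median SD of members to 2.70, against 0.178 for other genes, since it spreads zeros further from low values.

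Of 15 named members with a tested difference, 9 kept their sign in all alternatives run, but their sizes moved. The sign of Snord87 could not turn when 1 tumour was left out, because its groups did not overlap with all tumours kept. Leaving out 1 tumour gave -2.08 to -1.04 for Snord87, -2.69 to -1.29 for Snord14d, 0.93 to 2.44 for Snord80, 0.64 to 3.21 for Snord14c, 0.17 to 2.23 for Snord72, 0.087 to 1.65 for Snord16a, 0.025 to 1.36 for Snord35a, -2.24 to -0.77 for Snord70 and -1.86 to -0.84 for Snord7. Snord8 turned to 0.54 and 0.0049 with pseudocounts of 0.1 and 0.5. When 1 tumour was left out, differences ran from -0.31 to 0.47 for Snord45c, -2.38 to 0.074 for Snord32a, -0.20 to 0.29 for Snord22, -1.20 to 0.0044 for Snord83b, -0.40 to 0.043 for Snord94 and -0.53 to 0.25 for Snord8. Tumours whose removal turned a sign were FA replicate 2 and PBS replicate 3 for Snord45c, FA replicate 2 for Snord32a, FA replicate 2 and PBS replicate 1 for Snord22, FA replicate 3 for Snord83b, FA replicate 3 and PBS replicate 3 for Snord94, and FA replicate 1 for Snord8. The cause was not tested. Snord7 without PBS replicate 2 and Snord8 without PBS replicate 3 averaged under 1 TPM and were not fitted. Each had its highest value in the tumour left out, so their ranges and signs lack the removal that would move them most. Read depth is not in the table, so what it limits is known only through the steps.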
